A study of Rattus norvegicus with 15 samples.

Results

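Genes of 7 solute carrier families that move amino acids across membranes were examined in RNA of rat lung. The 62 members are the genes of the 22250 in the deposited table whose symbol begins with Slc1a, Slc3a, Slc6a, Slc7a, Slc36a, Slc38a or Slc43a and a number, with 7, 2, 19, 16, 4, 11 and 3 members in that order of families. The symbol rule also takes in genes that carry other substrates or none. Slc6a2 and Slc6a4 encode the noradrenaline and serotonin transporters, Slc6a3 the dopamine transporter, Slc6a8 a creatine transporter, and the product of Slc43a3 carries purine nucleobases. Slc7a6os, whose name says that it lies opposite Slc7a6, is not a transporter gene, and without a stated strand setting reads of this pair may not have been told apart.

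The 15 libraries came from rats of genotype WT and fall into 3 groups of 5. SJY rats were given LPS, the endotoxin of Gram-negative bacteria, through the trachea and Sang Ju Yin, a Chinese herbal formula, into the stomach. ALI rats, the model of acute lung injury, were given tracheal LPS without the formula, and control rats were normal. The labels give no strain, age, dose or time; they name no group that received the tracheal or gastric vehicle, and do not say whether a library is 1 animal. P-values here describe only how far these libraries scatter. Values are FPKM, fragments scaled for gene length and for mapped fragments, and the number of reads behind them is unknown.

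Amino acid carriers differ in the residues they take and in what drives them. SLC1 and most SLC6 and SLC38 proteins use the sodium gradient to load cells. Many SLC7 carriers exchange one amino acid for another and reach the membrane only as light chains bound to an SLC3 heavy chain. Several SLC36 proteins use protons, and most SLC43 proteins let large neutral amino acids through in either direction. Leukocytes raise such carriers when they are activated and divide, and alveolar epithelium uses them to clear protein and amino acids from the air space.

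ALI 1 stood apart from the other libraries. The 13 mitochondrial genes took 37.7% of its summed FPKM, against 10.4 to 17.1% in SJY, 8.31 to 14.1% in the other ALI libraries and 5.19 to 9.62% in control. It held the lowest of the 15 values for 19 of the 40 tested members, and SJY 1, with the highest share among the SJY libraries, held the lowest for 12. Type II cell and surfactant markers, which identify the tissue as lung, summed to 28643 to 35973 FPKM in SJY, 10498 to 38954 in ALI and 30167 to 43492 in control, with ALI 1 the lowest. Results below are given with all libraries, and the call of a gene is given without ALI 1 or SJY 1 where that ends it. Leaving out ALI 1 also gained calls against control, of Slc7a7 and Slc6a2 (higher) in ALI and of Slc7a7 (higher), Slc6a4, Slc3a1, Slc6a9 and Slc43a3 (lower) in SJY. Leaving out SJY 1 gained Slc1a3 (higher) and Slc7a2 (lower) in ALI and Slc7a7, Slc38a6 and Slc38a7 (higher) in SJY.

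Of the 62 members, 40 reached 1 FPKM in at least 5 of the 15 libraries and were tested; a gene could pass through 1 group alone. With LPS, the light chain gene Slc7a5 and the facilitated carrier Slc43a2 rose and the light chain gene Slc7a10, the glutamine carrier Slc38a5 and the creatine transporter Slc6a8 fell, in ALI and in SJY. The calls of Slc7a5 in SJY and of Slc6a8 in ALI were lost without certain single libraries, as given below. With the replicate number of the titles as a block, only Slc7a10 was called in both. By limma over all 13457 tested genes, at a Benjamini-Hochberg adjusted p under 0.05, 6 of the 40 changed in ALI against control, which is 15% of members beside 17.6% of all genes tested; 3 were higher (8.02% of all genes) and 3 lower (9.56%). In SJY against control 12 changed, which is 30% beside 32.6% of all genes. Of these, 2 were higher (5% of members, beside 14.6% of all genes) and 10 lower (25%, beside 18.1%). With median-of-ratios scaling the split was 6 higher and 9 lower, beside 2382 higher and 2295 lower of all 13457 genes. At an unadjusted p under 0.05 there were 16 members in ALI, beside 35% of all genes, and 17 in SJY, beside 43.6%. The libraries of both groups did not overlap for 5 members in ALI against control (12.5%, beside 12.9% of all genes) and for 10 in SJY against control (25%, beside 27.7%). In SJY against ALI none of the 40 passed, where 0.00743% of all genes did, a single gene. The total shares of members called in the comparisons with control are close to those of all genes. By direction, in SJY against control, the share called higher was below that of all genes and the share called lower above it. This difference was not tested.

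The median log2 change of the 40 was −0.16 in ALI against control, beside −0.12 for all tested genes, and −0.25 in SJY against control, beside −0.11. Median-of-ratios scaling removed the shift of all genes, with medians of 0.0001 and −0.0043, so changes are given below also relative to the median gene. Both comparisons use the same 5 control libraries. Slc7a5, Slc43a2, Slc7a10, Slc38a5 and Slc6a8 were called in both, which is 5 of the 6 called in ALI and 5 of the 12 called in SJY. Slc1a5 was called in ALI alone and 7 members in SJY alone, and the test of that difference is SJY against ALI, in which none passed. The 40 tested genes summed to 620.2 ± 51.3 FPKM in SJY, 631 ± 109 in ALI and 711 ± 39.7 in control (SD, n = 5 each).

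**Figure D1:**
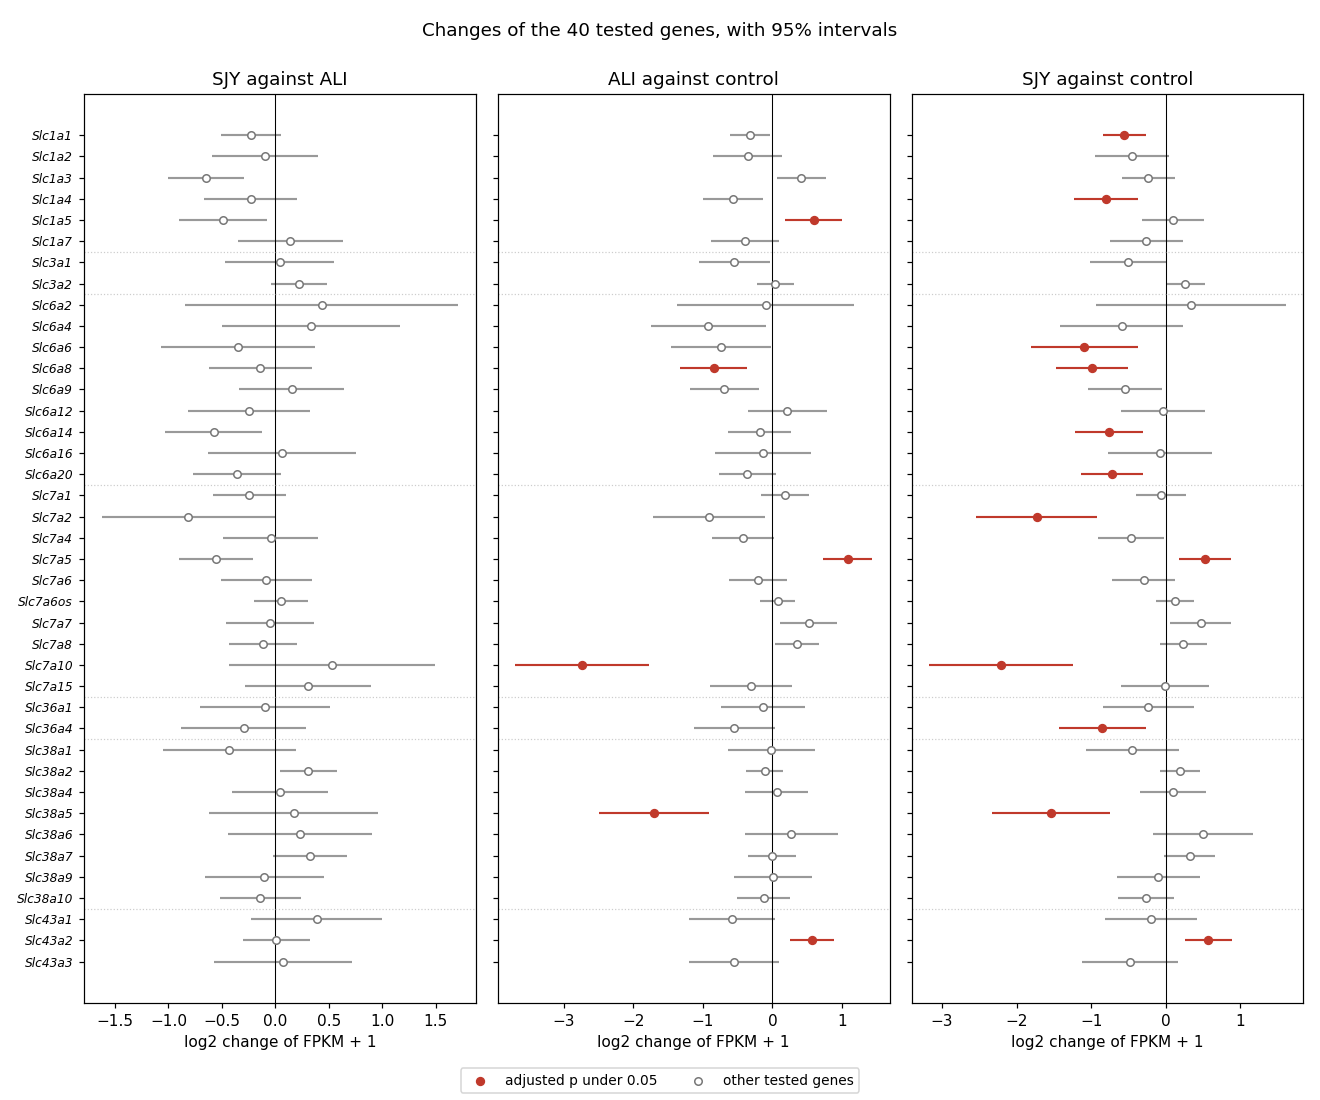
Log2 change of FPKM + 1 (horizontal axis) of the 40 tested genes, 1 per line and split by family with dotted lines, for SJY against ALI, ALI against control and SJY against control. Points are limma estimates, lines their 95% intervals, and filled red points passed an adjusted p under 0.05: none for SJY against ALI, 6 for ALI against control and 12 for SJY against control, with Slc7a10 farthest to the left in the panels of ALI and SJY against control.

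Promoters were read for 4 called genes, with the letters of 2 motifs in capitals: Slc7a5 and Slc7a10 as the members with the largest rise and fall in ALI, and Slc1a4 and Slc6a6 because their windows hold a match. The sequences are from RefSeq on build GRCr8, which is not the build of the deposited values, and show the 250 bases before the annotated start, 5′ to 3′ on the strand of the gene. The motifs were TGATGNAA, the C/EBP-ATF element through which ATF4 acts (with the longer TGATGNAAT, which contains it), and TGACNNNGC, the core of the antioxidant response element, each on both strands.
Slc7a5 (chr19:66872413-66872662, minus strand): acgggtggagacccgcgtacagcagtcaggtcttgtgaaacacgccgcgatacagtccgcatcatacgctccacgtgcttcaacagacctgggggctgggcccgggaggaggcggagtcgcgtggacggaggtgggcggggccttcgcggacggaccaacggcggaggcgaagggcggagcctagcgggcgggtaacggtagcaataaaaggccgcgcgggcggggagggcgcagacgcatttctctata
Slc7a10 (chr1:96965872-96966121, plus strand): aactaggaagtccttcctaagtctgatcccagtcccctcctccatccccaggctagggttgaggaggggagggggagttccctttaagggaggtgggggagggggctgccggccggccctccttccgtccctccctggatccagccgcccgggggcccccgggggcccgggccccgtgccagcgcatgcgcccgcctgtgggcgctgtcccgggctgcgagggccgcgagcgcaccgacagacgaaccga
Slc1a4 (chr14:98761563-98761812, minus strand): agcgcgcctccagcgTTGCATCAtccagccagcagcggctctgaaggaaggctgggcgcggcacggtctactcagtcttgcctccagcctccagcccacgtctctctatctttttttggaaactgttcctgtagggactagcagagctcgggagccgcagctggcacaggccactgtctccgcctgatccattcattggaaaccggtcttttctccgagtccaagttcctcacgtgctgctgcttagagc
Slc6a6 (chr4:125752252-125752501, plus strand): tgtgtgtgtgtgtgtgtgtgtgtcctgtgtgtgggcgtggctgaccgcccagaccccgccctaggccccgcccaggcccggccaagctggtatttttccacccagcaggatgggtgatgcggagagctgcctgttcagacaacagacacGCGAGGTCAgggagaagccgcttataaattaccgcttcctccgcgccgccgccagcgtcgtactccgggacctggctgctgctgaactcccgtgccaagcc
The first motif begins at position −235 of Slc1a4 and the second at −101 of Slc6a6, both on the opposite strand, and neither occurs in the windows of Slc7a5 and Slc7a10. RefSeq promoters were matched for 46 of the 62 members, in windows that run from 250 bases before to 50 after the start. TGATGNAA occurred in 3 of the 46 (Slc1a4, Slc38a1 and Slc7a1), or 6.52%, beside 3.82% of all 27457 promoters, and TGATGNAAT in 0, beside 1.05%. TGACNNNGC occurred in 8 (17.4%, beside 12.2%), among them Slc38a2, Slc7a7 and Slc6a6. Member promoters were richer in GC, with a median of 58.7%, beside 52.3% of all promoters, and its part in these shares was not tested. A match is a description of letters only.

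Values of single genes are given in FPKM, in the order SJY 1, 3, 4, 5 and 6, ALI 1 to 5 and control 4 to 8. Of the 6 SLC7 light chain genes that pair with Slc3a2, limma called Slc7a5 higher and Slc7a10 lower in both comparisons with control; Slc7a6, Slc7a7 and Slc7a8 were not called and Slc7a11 was below the filter. Slc7a5 encodes LAT1, which brings leucine and other large neutral amino acids into growing and activated cells; the printed window of its promoter holds neither motif. It stood at 7.23, 8.69, 9.85, 7.99 and 10.1 FPKM in the SJY libraries, 16.8, 8.61, 13.9, 17.3 and 11.8 in ALI and 5.89, 6.31, 5.9, 5.68 and 5.06 in control. Every SJY and every ALI library lay above every control library, and 4 of the 5 ALI libraries also lay above all SJY libraries. Slc7a5 averaged 13.7 ± 3.61 FPKM in ALI and 5.77 ± 0.456 in control (SD, n = 5 each; log2 change 1.08 ± 0.16 SE, 1.20 relative to the median gene, adjusted p = 0.000503 by limma). SJY averaged 8.78 ± 1.23 FPKM against that control (SD, n = 5; log2 change 0.52 ± 0.16 SE, 0.63 relative to the median gene, adjusted p = 0.0237). The call in SJY was lost without SJY 4 (adjusted p = 0.0572), SJY 6 (0.0563) or control 8 (0.0591), and that in ALI was kept without any single library.

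Slc7a10 encodes Asc-1, which exchanges small neutral amino acids such as glycine, alanine and D-serine. Its values were 6.84, 6.46, 6.27, 9.81 and 3.79 FPKM in the SJY libraries, 0.198, 9.03, 2.78, 6.12 and 10 in ALI and 37.7, 36.8, 31.6, 33.05 and 27.7 in control. All libraries given LPS lay far below the lowest control library, and ALI 1 was the lowest of all. The means were 5.63 ± 4.14 FPKM in ALI and 33.4 ± 4.06 in control (SD, n = 5 each; log2 change −2.73 ± 0.45 SE, −2.61 relative to the median gene, adjusted p = 0.000981), and without ALI 1 the log2 change was −2.21. SJY averaged 6.64 ± 2.14 FPKM (SD, n = 5), a log2 change from control of −2.21 ± 0.45 SE with an adjusted p of 0.0023 by limma.

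The light chain genes were set beside their common heavy chain. Slc3a2, the CD98 heavy chain that carries these light chains to the membrane, had the highest level of all members, with 183, 150.2, 138, 145 and 159 FPKM in the SJY libraries, 114, 153, 113, 169.7 and 122 in ALI and 126, 141, 125, 126 and 125 in control. Its groups overlapped, and limma called it in neither comparison with control (log2 change 0.04, adjusted p = 0.828 in ALI; 0.26, adjusted p = 0.113 in SJY). Its 6 light chain genes, Slc7a5, Slc7a6, Slc7a7, Slc7a8, Slc7a10 and Slc7a11, summed to 69.1 ± 11.7 FPKM in SJY, 75.9 ± 11.7 in ALI and 84.6 ± 6.95 in control (SD, n = 5 each). Slc7a10 made up 10.04 ± 4.15% of that sum in SJY, 7.17 ± 5.38% in ALI and 39.4 ± 3.44% in control. The share of Slc7a5 was 12.8 ± 0.966%, 18.8 ± 7.31% and 6.84 ± 0.595% in SJY, ALI and control. For Slc7a7, the y+LAT1 chain that exports arginine and lysine, it was 42.1 ± 2.56%, 40.01 ± 6% and 24.4 ± 2.75%. With Slc7a10 left out of the sum, Slc7a7 made up 46.9 ± 2.13% in SJY, 43.2 ± 6.76% in ALI and 40.2 ± 3.47% in control, and Slc7a5 14.3 ± 1.37%, 20.04 ± 7.05% and 11.3 ± 1.56%. These shares describe FPKM and were not tested.

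**Figure D2:**
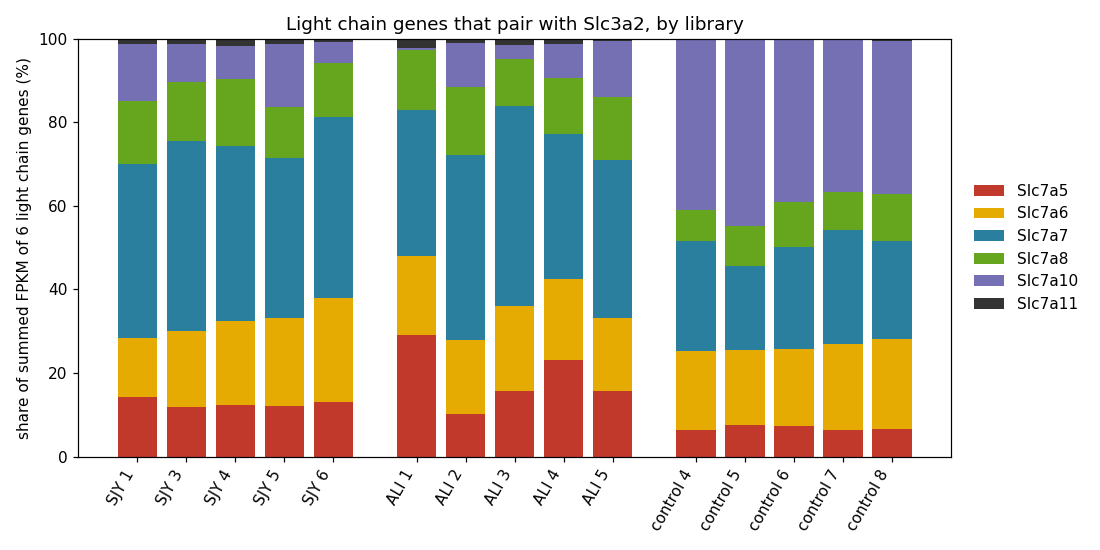
Share (percent, vertical axis) of each of 6 light chain genes in their summed FPKM, 1 bar per library, with the libraries of SJY, ALI and control from left to right. Slc7a10 fills 4.92 to 14.98% of each SJY bar, 0.342 to 13.4% of each ALI bar and 36.4 to 44.7% of each control bar.

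Among the other light chains, Slc7a7 averaged 29.2 ± 5.73 FPKM in SJY, 30.9 ± 8.97 in ALI and 20.7 ± 3.71 in control (SD, n = 5 each), and limma did not call it (log2 change 0.52, adjusted p = 0.0715 in ALI; 0.47, adjusted p = 0.0742 in SJY). After median-of-ratios scaling it passed in both, with adjusted p of 0.00951 and 0.0112. Slc7a8, the LAT2 chain, showed 9.77 ± 2.08, 10.6 ± 1.89 and 8.05 ± 0.783 FPKM in SJY, ALI and control, and Slc7a6, the y+LAT2 chain, 13.8 ± 4.45, 14.2 ± 2.54 and 16.5 ± 1.699 FPKM. Neither was called, though Slc7a8 was called higher in both LPS groups after that scaling. Slc7a11, the cystine importer xCT that feeds glutathione synthesis, was below the filter. It stood at 0.614, 0.978, 1.304, 0.878 and 0.659 FPKM in the SJY libraries, 1.32, 0.747, 1.38, 0.915 and 0.325 in ALI and 0.299, 0.115, 0.259, 0.177 and 0.432 in control. In 9 of the 10 libraries given LPS it lay above every control library, and ALI 5 lay within the control range. Without the filter on low values limma called it higher in ALI (adjusted p = 0.0194) and in SJY (adjusted p = 0.0127), at levels near 1 FPKM.

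The CAT members of SLC7 carry cationic amino acids and need no heavy chain. Slc7a2 encodes CAT2, which supplies arginine to nitric oxide synthase and arginase. It had 0.613, 2.88, 5.91, 4.41 and 7.48 FPKM in the SJY libraries, 6.51, 7.93, 3.99, 11.02 and 7.31 in ALI and 8.38, 12.8, 13.6, 16.2 and 23.5 in control. All SJY libraries lay below all control libraries, SJY 1 lowest, and 4 of 5 ALI libraries did so. SJY averaged 4.26 ± 2.66 FPKM and control 14.9 ± 5.57 (SD, n = 5 each; log2 change −1.73 ± 0.38 SE, −1.62 relative to the median gene, adjusted p = 0.00355), a fall called by limma. ALI averaged 7.35 ± 2.54 FPKM and was not called (log2 change −0.92, adjusted p = 0.104), though it was called lower without SJY 1. Slc7a1, the more widely expressed CAT1, averaged 2.08 ± 0.497 FPKM in SJY, 2.66 ± 0.671 in ALI and 2.19 ± 0.255 in control and was not called. The remaining tested genes named Slc7a, which are not all CAT members, were Slc7a4, Slc7a15 and Slc7a6os, and none was called. Slc7a4 averaged 1.52 ± 0.416, 1.65 ± 0.732 and 2.51 ± 0.781 FPKM, Slc7a15 1.41 ± 0.671, 1.02 ± 0.724 and 1.43 ± 0.691 FPKM, and Slc7a6os 14.7 ± 1.498, 14.1 ± 1.36 and 13.4 ± 2.02 FPKM in SJY, ALI and control. Nos2, the inducible nitric oxide synthase that uses arginine, rose, with 1.77 ± 0.604 FPKM in SJY and 0.201 ± 0.0674 in control (SD, n = 5 each; log2 change 1.17, adjusted p = 0.00352).

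The SLC38 carriers move glutamine and other neutral amino acids. Slc38a5, a sodium and proton coupled glutamine carrier, had 1.79, 3.71, 1.71, 3.62 and 2.27 FPKM in the SJY libraries, 0.118, 3.27, 1.399, 5.51 and 3.01 in ALI and 11.4, 10.2, 12.9, 6.54 and 6.61 in control. Each library given LPS lay below each control library. ALI averaged 2.66 ± 2.04 FPKM and control 9.52 ± 2.85 (SD, n = 5 each; log2 change −1.71 ± 0.37 SE, −1.58 relative to the median gene, adjusted p = 0.00633), and SJY averaged 2.62 ± 0.978 FPKM (log2 change −1.54 ± 0.37 SE, −1.43 relative to the median gene, adjusted p = 0.00625; limma). ALI 1 was the lowest library, and without it the log2 change in ALI was −1.34. Slc38a2, SNAT2, which cells induce when amino acids run short, had 70.6, 92.4, 78.1, 86.8 and 91.03 FPKM in the SJY libraries, 52.5, 68.6, 65.9, 86.1 and 67.2 in ALI and 76.5, 61.5, 79.6, 74.95 and 72.4 in control. Its groups overlapped and it was called in no comparison. The remaining tested SLC38 genes were not called, and with median-of-ratios scaling Slc38a2 and Slc38a7 were called higher in SJY than in control. Without SJY 1, Slc38a6 and Slc38a7 were called higher in SJY. The level of Slc38a10 was 23.4 to 31.2 FPKM in SJY, 18.02 to 37.8 in ALI and 25.9 to 41.5 in control, and means of Slc38a1, Slc38a4, Slc38a6, Slc38a7 and the lysosomal Slc38a9 lay between 0.717 and 11.02 FPKM in every group.

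Of the 3 SLC43 genes, Slc43a2 rose. It encodes LAT4, a facilitated carrier of branched-chain amino acids, phenylalanine and methionine. Its values were 12.9, 19.9, 18.9, 17.01 and 18.4 FPKM in the SJY libraries, 13.9, 17.8, 15.1, 20.97 and 18.9 in ALI and 8.49, 12.1, 11.5, 11.4 and 13.4 in control. All ALI libraries lay above all control libraries, and among the SJY libraries only SJY 1 lay below the highest control library. The means were 17.3 ± 2.85 FPKM in ALI and 11.4 ± 1.795 in control (SD, n = 5 each; log2 change 0.56 ± 0.15 SE, 0.69 relative to the median gene, adjusted p = 0.0175), and 17.4 ± 2.75 FPKM in SJY (log2 change 0.57 ± 0.15 SE, 0.68 relative to the median gene, adjusted p = 0.00913; limma). Slc43a1, the related LAT3, averaged 6.18 ± 1.13, 4.94 ± 2.37 and 7.32 ± 1.97 FPKM in SJY, ALI and control and was not called. Slc43a3 ranged over 47.1 to 82.7 FPKM in SJY, 22.8 to 98.9 in ALI and 67.6 to 105 in control, with ALI 1 lowest, and was not called.

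Of the 9 tested SLC6 genes, limma called 4 lower in SJY against control (44.4%, beside 18.1% of all genes). It called 1, Slc6a8, lower in ALI against control (11.1%, beside 9.56%). None was called higher, beside 8.02% of all genes in ALI and 14.6% in SJY. At an unadjusted p under 0.05, 0 were higher in either, beside 1866 of all 13457 genes in ALI and 2456 in SJY. Whether 0 of 9 differs from these shares was not tested. Without ALI 1, Slc6a2 was called higher in ALI. Slc6a8, which imports creatine, had 8.58, 7.47, 7.45, 9.59 and 7.05 FPKM in the SJY libraries, 3.93, 9.47, 9.72, 11.6 and 12.6 in ALI and 13.6, 22.1, 16.8, 18.3 and 14.6 in control. Every library given LPS lay below every control library. SJY averaged 8.03 ± 1.05 FPKM (log2 change −0.99 ± 0.23 SE, −0.88 relative to the median gene, adjusted p = 0.00451) and ALI 9.48 ± 3.37 FPKM (log2 change −0.85 ± 0.23 SE, −0.72 relative to the median gene, adjusted p = 0.0188), against 17.1 ± 3.35 FPKM in control (SD, n = 5 each; limma). The call in ALI was lost without control 5 (adjusted p = 0.0544), the highest control library, and in a fit of only ALI and control (0.0587). Without ALI 1 its log2 change was −0.60.

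Slc6a14 encodes a broad carrier of neutral and cationic amino acids on the apical side of epithelia, lung included. It stood at 23.03, 14.4, 18.3, 17.99 and 14.4 FPKM in the SJY libraries, 44.2, 19.4, 26.5, 28.6 and 19.5 in ALI and 33.1, 19.95, 31.7, 33.1 and 35.4 in control. Control 5 was the low library of its group, and SJY 1 lay above it while the other SJY libraries lay below all control libraries. SJY averaged 17.6 ± 3.58 FPKM and control 30.7 ± 6.14 (SD, n = 5 each; log2 change −0.76 ± 0.21 SE, −0.65 relative to the median gene, adjusted p = 0.014), and the call was lost with median-of-ratios scaling (adjusted p = 0.0855). ALI averaged 27.6 ± 10.1 FPKM, with ALI 1 highest, and was not called (log2 change −0.18, adjusted p = 0.559). Slc6a20, a carrier of proline and other imino acids, had 2.45, 4.22, 4.703, 6.43 and 6.28 FPKM in the SJY libraries, 6.22, 5.54, 6.18, 7.91 and 5.36 in ALI and 6.71, 8.97, 7.295, 8.39 and 10.2 in control. SJY lay below control in every library, with means of 4.82 ± 1.64 and 8.32 ± 1.39 FPKM (SD, n = 5 each; log2 change −0.72 ± 0.19 SE, −0.61 relative to the median gene, adjusted p = 0.0113), and ALI, at 6.24 ± 1.008 FPKM, was not called (log2 change −0.36, adjusted p = 0.194).

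Slc6a6 encodes the taurine transporter. Its values were 7.96, 12.6, 16.02, 17.5 and 25.2 FPKM in the SJY libraries, 11.6, 17.3, 15.97, 27.4 and 29.3 in ALI and 14.1, 33.6, 39.3, 42.02 and 47.98 in control. Control 4 lay within the range of the LPS groups, and the other control libraries lay above all libraries given LPS. The means were 15.9 ± 6.37 FPKM in SJY and 35.4 ± 12.98 in control (SD, n = 5 each; log2 change −1.09 ± 0.34 SE, −0.98 relative to the median gene, adjusted p = 0.0221). This call was lost without SJY 1 (adjusted p = 0.0629), SJY 3 (0.0502), control 6 (0.0531), control 7 (0.056) or control 8 (0.0618). ALI averaged 20.3 ± 7.65 FPKM (log2 change −0.74, adjusted p = 0.13, not called). The glycine transporter Slc6a9 lay just outside the threshold in ALI, with 10.1 ± 3.29 FPKM against 16.6 ± 4.401 in control (SD, n = 5 each; log2 change −0.69, adjusted p = 0.0502). The noradrenaline transporter Slc6a2 and the serotonin transporter Slc6a4, which in lung clear those amines from the blood, were not called with all libraries. Slc6a2 ranged over 10.1 to 19.7 FPKM in SJY, 0.266 to 26.8 in ALI and 7.52 to 13.03 in control, and Slc6a4 over 7.72 to 9.82, 0.9503 to 13.1 and 11.5 to 18.5 FPKM, in SJY, ALI and control, with ALI 1 the lowest library of both. All SJY libraries lay below all control libraries for Slc6a4. Without ALI 1 limma called Slc6a2 higher in ALI than in control (log2 change 0.69, adjusted p = 0.0406; −0.10, adjusted p = 0.922 with it) and Slc6a4 lower in SJY than in control (log2 change −0.59, adjusted p = 0.0138; adjusted p = 0.261 with it). The betaine carrier Slc6a12 and the orphan Slc6a16 had group means between 1.76 and 2.99 FPKM.

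**Figure D3:**
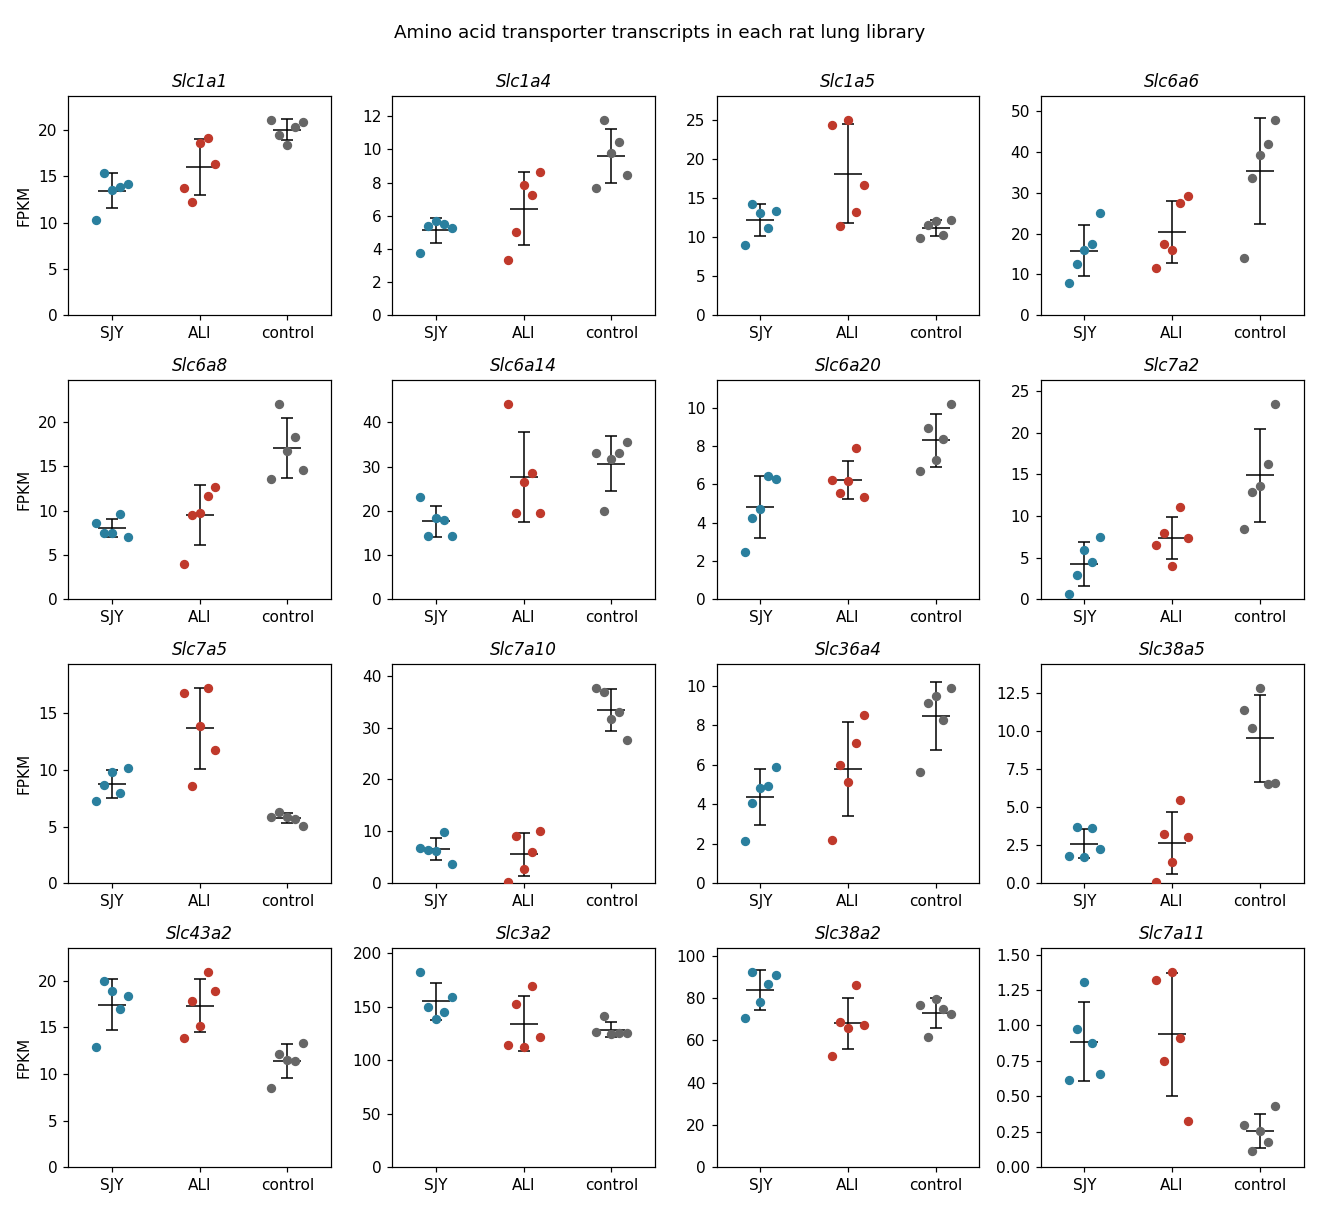
FPKM (vertical axis, from 0) in each of the 5 libraries of SJY, ALI and control for the 13 genes called in a comparison with control and for Slc3a2, Slc38a2 and Slc7a11. Points are libraries and bars the mean ± SD; the points given LPS do not overlap those of control for Slc7a10, Slc7a5, Slc38a5 and Slc6a8.

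The SLC1 family holds the glutamate carriers and the neutral exchangers. Slc1a1, which takes up glutamate and cysteine, had 10.3, 15.3, 13.5, 13.8 and 14.2 FPKM in the SJY libraries, 13.7, 12.3, 18.6, 19.1 and 16.3 in ALI and 21.1, 19.5, 18.4, 20.4 and 20.8 in control. All SJY libraries lay below all control libraries, with means of 13.4 ± 1.88 and 20.03 ± 1.11 FPKM (SD, n = 5 each; log2 change −0.55 ± 0.13 SE, −0.45 relative to the median gene, adjusted p = 0.00614). ALI overlapped control through ALI 3 and ALI 4 and was not called (log2 change −0.32, adjusted p = 0.1). Slc1a4, an exchanger of alanine, serine and cysteine whose promoter holds the element printed in capitals, had 3.74, 5.401, 5.67, 5.48 and 5.25 FPKM in the SJY libraries, 3.32, 5.01, 7.88, 7.27 and 8.63 in ALI and 7.67, 11.8, 9.76, 10.4 and 8.48 in control. SJY lay wholly below control, at 5.11 ± 0.782 against 9.63 ± 1.63 FPKM (SD, n = 5 each; log2 change −0.80 ± 0.20 SE, −0.69 relative to the median gene, adjusted p = 0.0082), while ALI at 6.42 ± 2.198 FPKM was not called (log2 change −0.56, adjusted p = 0.0648).

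Slc1a5, the glutamine exchanger ASCT2, had 9.03, 14.2, 13.1, 11.1 and 13.3 FPKM in the SJY libraries, 24.4, 11.4, 25.04, 13.1 and 16.6 in ALI and 9.84, 11.5, 12.1, 10.3 and 12.1 in control. ALI 1 and ALI 3 were high, ALI 2 lay within the control range and the SJY libraries overlapped control. ALI averaged 18.1 ± 6.29 FPKM and control 11.2 ± 1.04 (SD, n = 5 each; log2 change 0.59 ± 0.19 SE, 0.72 relative to the median gene, adjusted p = 0.0466). It was also lost with a pseudocount of 0.1, with no filter, in a fit of only ALI and control and with array weights (adjusted p from 0.0506 to 0.0909), and 12 of the 15 libraries, ALI 1, 3 and 5, SJY 3 to 6 and control 4 to 8, each ended it when left out, with adjusted p from 0.0548 to 0.105. Slc1a3, the glutamate carrier GLAST, averaged 7.86 ± 1.73 FPKM in SJY, 12.8 ± 2.27 in ALI and 9.32 ± 1.41 in control (SD, n = 5 each) and was not called against control. Without SJY 1, or with median-of-ratios scaling, it was called higher in ALI than in control. Slc1a2 and Slc1a7 had means under 2 FPKM in every group. Of SLC36, Slc36a1 and Slc36a4 were tested. Slc36a1 averaged 4.11 ± 1.45, 4.52 ± 1.88 and 4.85 ± 1.124 FPKM in SJY, ALI and control and was not called. Slc36a4, which takes proline and tryptophan, had 2.13, 4.07, 4.81, 4.92 and 5.88 FPKM in the SJY libraries, 2.18, 5.97, 5.13, 7.13 and 8.53 in ALI and 5.63, 9.11, 9.49, 8.27 and 9.91 in control. Apart from control 4, control libraries lay above all SJY libraries, and the means were 4.36 ± 1.404 FPKM in SJY and 8.48 ± 1.71 in control (SD, n = 5 each; log2 change −0.85 ± 0.27 SE, −0.74 relative to the median gene, adjusted p = 0.0271). The call was lost without SJY 1 (adjusted p = 0.0735), SJY 3 (0.0518), control 5 (0.0558), control 6 (0.0613), control 7 (0.0512) or control 8 (0.0649). Slc3a1, the heavy chain of the cystine and dibasic amino acid system, averaged 4.81 ± 1.21, 4.87 ± 2.03 and 7.12 ± 0.735 FPKM in SJY, ALI and control and was not called, and its light chain gene Slc7a9 reached at most 0.458 FPKM.

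SJY and ALI lungs both received LPS, and only SJY rats were given the herbal formula. It went into the stomach, and the labels name no group that received the gastric vehicle. The formula and the act of giving it therefore cannot be told apart in SJY against ALI. No member passed the threshold, and 6 of the 40 (15%) had an unadjusted p under 0.05 by limma, 5 lower and 1 higher in SJY, beside 11.8% of all tested genes. Slc1a3 had the smallest p. Its values were 5.004, 7.67, 8.72, 8.38 and 9.52 FPKM in the SJY libraries, 15.1, 9.77, 11.3, 14.8 and 13.1 in ALI and 8.16, 7.61, 10.4, 9.52 and 10.9 in control. It was the only member whose SJY libraries all lay on 1 side of the ALI libraries (2.5% of members, beside 3.23% of all genes), and its log2 change was −0.65 (95% interval −1.004 to −0.30; unadjusted p = 0.0013, adjusted p = 0.183). Slc7a5 was lower in SJY by the estimate, with a log2 change of −0.56 (95% interval −0.91 to −0.21; unadjusted p = 0.00389, adjusted p = 0.234). The estimates were −0.58 for Slc6a14, −0.49 for Slc1a5, −0.81 for Slc7a2 and 0.31 for Slc38a2, with adjusted p from 0.33 to 0.419. All these estimates include ALI 1. It held the highest value of the 15 libraries for Slc6a14 (44.2 FPKM) and Slc1a3 (15.1 FPKM) and the lowest for Slc38a2 (52.5 FPKM). For Slc7a5, Slc1a5 and Slc7a2 it lay within the range of the other ALI libraries. Without ALI 1 no member passed either. For Slc7a10 the estimate was 0.53 (95% interval −0.44 to 1.49; unadjusted p = 0.263, adjusted p = 0.695), an interval that holds changes in both directions. Neutrophil markers had a median log2 change of 0.91 in SJY against ALI, with 0 of 10 called, and their part in these estimates was not tested.

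Other genes of amino acid handling were read from lists, with the called genes of largest change named, up to 4 a list, and log2 changes in parentheses. Their called shares stand beside 17.6% of all genes called in ALI and 32.6% in SJY against control. In the amino acid response that ATF4 directs when residues run short, 3 of 19 tested genes rose and 3 fell in ALI against control, and 5 rose and 3 fell in SJY against control (31.6% and 42.1% of the list). Cebpb, a partner of ATF4 that also answers inflammation, had 415 ± 89.5 FPKM in ALI and 91.4 ± 29.8 in control (SD, n = 5 each; log2 change 2.20, adjusted p = 0.000483). Eif4ebp1, a brake on translation, had 57.8 ± 21.02 FPKM in ALI and 28.2 ± 3.495 in control (SD, n = 5 each; log2 change 0.96, adjusted p = 0.00245). The stress factor Atf3 and the lipoprotein receptor Vldlr fell, by log2 changes of −1.78 and −1.05. In SJY the 4 had log2 changes of 1.49 for Cebpb, 1.33 for Eif4ebp1, −1.34 for Atf3 and −0.96 for Vldlr.

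Of 17 enzymes of amino acid synthesis and one-carbon metabolism, 3 rose and 1 fell in ALI, and 2 rose and 1 fell in SJY (23.5% and 17.6% of the list). Mthfd2, a mitochondrial folate enzyme of dividing cells, had 14.7 ± 5.89 FPKM in ALI and 5.84 ± 1.16 in control (SD, n = 5 each; log2 change 1.14, adjusted p = 0.00267). Phgdh and Shmt2, of serine and glycine synthesis, rose by log2 changes of 0.85 and 0.69 in ALI, and the cytosolic Shmt1 fell, with −0.52. In SJY, Mthfd2 (1.04) and Asl (0.47) rose and Shmt1 fell (−0.56). The count of 4 in ALI was 2 without control 5, 6, 7 or 8, and that of 3 in SJY was 7 without ALI 1. Of 14 breakdown enzymes, 3 rose and 0 fell in ALI, and 2 rose and 1 fell in SJY (21.4% and 21.4% of the list). Bcat1, which starts the breakdown of the branched-chain residues that LAT1 imports, had 39.8 ± 29.1 FPKM in ALI and 6.25 ± 1.67 in control (SD, n = 5 each; log2 change 2.30, adjusted p = 0.000198). Kmo and Nos2 rose by log2 changes of 0.84 and 0.84 in ALI; in SJY Bcat1 rose (2.31) and Bcat2 fell (−0.66). The count of 3 in ALI was 1 without ALI 2, control 5 or control 6, and that of 3 in SJY was 5 without SJY 1.

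Of 20 cytosolic aminoacyl-tRNA synthetases, which charge tRNAs with amino acids, 4 rose and 0 fell in ALI, and 4 rose and 0 fell in SJY (20% and 20% of the list). In ALI these were Dars, Kars, Tars1 and Yars1, with log2 changes from 0.32 to 0.49, and in SJY Kars, Hars1, Dars and Yars1, from 0.31 to 0.44. The count in ALI was 0 without control 6 or control 7, 1 or 2 without ALI 1, ALI 3, SJY 4, control 5 or control 8, and 7 without ALI 5, and that in SJY was 7 without ALI 1. Of 22 genes by which mTORC1 senses amino acids, 0 were called in ALI by limma, and 0 with median-of-ratios scaling. At an unadjusted p under 0.05 there were 8 of the 22 in ALI, beside 35% of all genes. In SJY 4 rose and 2 fell (0% of the list called in ALI and 27.3% in SJY). Lamtor3 and Lamtor5, of the lysosomal anchor of mTORC1, rose by log2 changes of 0.42 and 0.42, and Tsc1, a brake on mTORC1, and Rptor, its scaffold, fell, with −0.81 and −0.44. The count of 6 in SJY was 14 without ALI 1 and 3 without control 6 or control 7; that of 0 in ALI was 1 without ALI 2 or ALI 5 and 2 without control 4.

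Of 13 carriers of amino acids and peptides outside the 7 families, 1 rose and 1 fell in ALI, and 1 rose and 4 fell in SJY (15.4% and 38.5% of the list). Slc15a3, a lysosomal peptide carrier of immune cells, had 25.1 ± 3.68 FPKM in ALI and 11.2 ± 1.17 in control (SD, n = 5 each; log2 change 1.09, adjusted p = 2.7e-05), and the epithelial peptide carrier Slc15a2 had 4.08 ± 1.87 FPKM in ALI and 13.3 ± 4.72 in control (SD, n = 5 each; log2 change −1.54, adjusted p = 0.00438). In SJY, Slc15a3 rose (1.17) and Slc15a2 (−1.53) and Slc25a13 (−0.71) fell. The count of 2 in ALI was 4 without ALI 5. Among 11 accessory genes, 2 rose and 2 fell in ALI, and 3 rose and 4 fell in SJY (36.4% and 63.6% of the list). Nedd4l, a ubiquitin ligase that removes several membrane carriers, had 19.9 ± 4.77 FPKM in ALI and 35.8 ± 4.21 in control (SD, n = 5 each; log2 change −0.85, adjusted p = 0.00577). Ggt1, which acts on glutathione outside the cell, had 12.7 ± 7.25 FPKM in ALI and 2.83 ± 0.8004 in control (SD, n = 5 each; log2 change 1.69, adjusted p = 0.00154), while Bsg fell (−0.60) and Arl6ip5 rose (0.33). In SJY, Ggt1 (1.59) and Arl6ip5 (0.66) rose and Nedd4l (−0.86) fell. The count of 4 in ALI was 2 without control 5, and that of 7 in SJY was 4 without SJY 3, control 6, 7 or 8. Of 7 glutathione genes, which include Ggt1, 2 rose and 1 fell in ALI, with Gss at 0.52 and Gclm at −0.57, and 3 rose and 1 fell in SJY (42.9% and 57.1% of the list), where Gsr (0.50) and Chac2 (0.45) rose and Gclm fell (−0.78). In SJY against ALI limma called 0 genes of these lists, with 10 at an unadjusted p under 0.05, where 11.8% of all tested genes had such a p. Without ALI 1 limma called 2 of the amino acid response and 1 of mTORC1 sensing.

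Cell type markers moved in the same libraries, and in bulk lung fewer cells of a type cannot be told apart from less RNA per cell. Type I epithelial markers (10 of 10 in the table, none at 0) summed to 1749.7 to 2766 FPKM in SJY, 715 to 2488 in ALI and 3355 to 4816 in control, so that the LPS groups lay below control. Neutrophil markers (11 of 11) summed to 8431 to 14894 FPKM in SJY, 2257 to 23379.7 in ALI and 163 to 255 in control. The highest ALI value was that of ALI 1, and the other ALI libraries summed to 2257 to 7322 FPKM, below every SJY library. Limma called 10 of 10 type I markers lower in ALI and 8 lower in SJY, and 10 of 10 tested neutrophil markers higher in both; the type I count in SJY was 5 without SJY 3, SJY 4 or control 8. In SJY against ALI 0 neutrophil markers were called, 7 of 10 had an unadjusted p under 0.05 with a median log2 change of 0.91, and 7 were called higher in SJY without ALI 1. Sums of monocyte and macrophage markers (10 of 11) were 510.3 to 798, 429 to 979.8 and 278 to 389 FPKM, and those of endothelial markers (9 of 10 in the table, 1 of them at 0) 1033 to 1644, 457 to 1465 and 1104 to 1759 FPKM, in SJY, ALI and control. Airway markers summed to 7858 to 13507, 5374 to 9075 and 10952 to 17132 FPKM, fibroblast and smooth muscle markers to 940.0 to 1264, 518 to 1407 and 628 to 1010.4, lymphocyte markers to 131 to 225, 57.96 to 419.7 and 112 to 146, and blood and platelet markers to 3567 to 10316, 2132 to 7248 and 412 to 6667. The part of these shifts in the changes of the carriers was not tested.

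The 22 members below the filter gave little signal. Slc6a5 and Slc6a18 were listed at 0 in every library. Slc36a2 and Slc36a3 reached 1.52 FPKM in ALI 3 and 1.03 FPKM in SJY 4 at most, and, apart from Slc7a11, the others never reached 1 FPKM. Among these, the highest values were 0.538 FPKM for Slc6a17, 0.502 for Slc7a3, 0.504 for Slc38a8, 0.458 for Slc7a9, 0.421 for Slc38a3 and 0.396 for Slc6a15. Slc38a11, Slc7a13, Slc6a11, Slc1a6, Slc6a3, Slc7a14, Slc6a7, Slc6a13, Slc7a12 and Slc6a19 stayed at or below 0.318 FPKM. Of these genes Slc6a15, a neutral amino acid carrier of brain, was called lower in SJY than in control without the filter (adjusted p = 0.0251 by limma), at 0.0193 and 0.189 FPKM.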

How the data were processed

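Total RNA of rat lung was sequenced in 15 libraries, 5 in each of the SJY, ALI and control groups, and grouped by their titles. TRIzol extraction and a NEBNext Ultra library kit are given per the labels' protocols. Cutadapt, HISAT2 and StringTie, with build Rnor_6.0, are named in the submitters' processing notes; versions, filters and strand setting are not given in the sources used here. FPKM is the unit of the deposited table, as its columns say, and covers 22250 genes, per the file headers. Its values hold no counts, so depth and counting error are unknown, and no scaling between libraries is stated.

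FPKM values were turned into log2(FPKM + 1), a scale that understates the change of low genes. The 13457 genes that reached 1 FPKM in 5 or more libraries were fitted by limma 3.58.1 in R 4.3.3, all 3 groups together, with trend and robust settings, two-sided, and p-values were adjusted by Benjamini-Hochberg over all of them. What share of true changes the test recovers in these libraries, and how many of its calls are false, was not tested. Members are named, with every library for those called and for Slc3a2, Slc38a2 and Slc7a11; the library values of Slc1a3 and the promoters printed were chosen after their values were seen. Lists name the 4 called genes of largest change, or all where fewer were called; a few genes that these rules would name are not reported here. The members and lists were chosen with earlier results of these data known. Of 234 listed symbols, 8 had no match and were not analysed here. Alternatives are given in the closing section.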

Additional observations from a re-analysis of the deposited data

Results flagged for a closer look

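In 11 of 120 groups of 5 libraries (9.17%), 1 library lay far from the others by Dixon's ratio; chance flags about 1 in 20 such groups, and no cause was tested. In ALI 1, 3 values were low: Slc1a7 at 0.0267 FPKM, beside 1.34 to 1.61 in the other libraries of its group, Slc6a9 at 4.497 FPKM, beside 10.5 to 12.8 in the other libraries of its group, and Slc38a10 at 18.02 FPKM, beside 32.9 to 37.8 in the other libraries of its group. SJY 1 was low for Slc1a4 at 3.74 FPKM, beside 5.25 to 5.67 in the other libraries of its group, for Slc36a1 at 1.57 FPKM, beside 4.38 to 5.095 in the other libraries of its group, and for Slc38a7 at 7.68 FPKM, beside 11.3 to 12.5 in the other libraries of its group. Control 5 was high for Slc3a2 at 141 FPKM, beside 125 to 126 in the other libraries of its group, and for Slc6a4 at 18.5 FPKM, beside 11.5 to 13.3 in the other libraries of its group, and low for Slc6a14 at 19.95 FPKM, beside 31.7 to 35.4 in the other libraries of its group. Slc36a1 was low in control 4 at 2.89 FPKM, beside 4.9 to 5.54 in the other libraries of its group, and Slc38a1 was high in ALI 3 at 9.76 FPKM, beside 2.15 to 4.17 in the other libraries of its group.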

How the results depend on the processing

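The number of members called in ALI against control, 6 of 40, was 11 with median-of-ratios scaling (adding Slc7a7, Slc7a8 and Slc1a3 higher and Slc1a4 and Slc6a9 lower) and 13 with array weights, and that in SJY against control, 12 of 40, was 26 with array weights. In SJY against ALI, 0 were called, and with array weights 1 (Slc1a3, lower in SJY). Leaving out each library in turn gave 4 to 8 member calls in ALI against control, 0 in SJY against ALI and 9 to 17 in SJY against control. Without both ALI 1 and SJY 1, an alternative chosen after seeing the data, the counts were 9, 0 and 18. The direction of each of the 18 calls held under every alternative that could be fitted; Slc38a5 had no value at a minimum mean of 5 FPKM, where it was not tested. With the replicate number of the titles as a replicate block, 2 members were called in ALI against control, Slc7a5 (higher) and Slc7a10 (lower). In SJY against control 4 were called with the block, Slc43a2 (higher) and Slc6a14, Slc7a10 and Slc1a1 (lower), and 0 in SJY against ALI. Of Slc7a5, Slc43a2, Slc7a10, Slc38a5 and Slc6a8, only Slc7a10 was thus called in both comparisons with control, and the block also ended the call of Slc1a5. The labels do not say that equal numbers mark related animals, so the numbers were not taken to pair libraries. Deviations of same-numbered libraries from their group means correlated at −0.39 to 0.30 over 9 pairs. Those of differently numbered libraries correlated at −0.33 to 0.45, and so few pairs cannot decide whether libraries are paired. Over all 13457 tested genes, calls in ALI against control were 2366. They were 2729 with median-of-ratios scaling, 3959 with array weights, 1332 in a fit of only both groups and 313 with the block. Leaving out 1 library gave 1556 (control 7) to 2897 (ALI 5), with 1564 without control 5. Leaving out both ALI 1 and SJY 1 gave 2851. In SJY against control calls over all genes were 4390, with 4677 after median-of-ratios scaling, 7654 with array weights and 1142 with the block. Leaving out 1 library gave 3359 (control 6) to 5956 (ALI 1), and leaving out both ALI 1 and SJY 1 gave 5613. In SJY against ALI over all genes, the single call became 181 without ALI 1, 478 with array weights and 62 without both ALI 1 and SJY 1. Members near 1 FPKM, Slc7a11 among them, are limited by depth, which is unknown.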
